A study of Mus musculus with 12 samples.

Results

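The miR-193 and miR-365 microRNAs were followed in mouse skin after ultraviolet B (UVB) irradiation, through 6 mature arms: mmu-miR-193b-3p, mmu-miR-193b-5p, mmu-miR-193a-3p, mmu-miR-193a-5p, mmu-miR-365-3p and mmu-miR-365-1-5p. The prefix mmu, for mouse, is mostly left out below. The arms were matched by name in the deposited table and made up 6 of its 1519 mature arms. Small RNA was sequenced from skin of C57BL/6 mice, an inbred strain, aged 6 to 8 weeks. Control skin was untreated (0 mJ/cm2), and irradiated skin received 90, 180 or 360 mJ/cm2; each of these 4 groups had 3 libraries. No group carried any other treatment or allele in the labels, and the time from irradiation to sampling was not given in the sources used here. Whether a dose's 3 libraries represent 3 mice is not stated in the labels; the p-values below measure the spread among libraries, part or all of which may be technical. Values are CPM, an arm's reads scaled to a library total of 1000000 miRNA reads.

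A microRNA hairpin can release a mature arm from either side, named 5p and 3p, and the arm that is loaded into Argonaute directs repression of mRNAs that match its seed, bases 2 to 8. miR-193b and miR-365-1 are neighbours transcribed together, and miR-193a and miR-365-2 form a second pair of neighbours. The miR-193b/miR-365 pair has been studied in brown adipocyte differentiation in mouse cells. In mouse skin it has been studied as a brake on squamous carcinoma growth, and miR-193b represses cyclin D1 and urokinase mRNAs in human cells.

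The sequences below show which members can stand for which hairpin. They are RefSeq sequences on build GRCm38.p6 and were matched by name for all 6 members. Each is written 5′ to 3′ in lower case, with the seed in capitals.
miR-193b-3p: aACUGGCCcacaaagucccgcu
miR-193a-3p: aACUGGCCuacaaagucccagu
miR-193b-5p: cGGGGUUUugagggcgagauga
miR-193a-5p: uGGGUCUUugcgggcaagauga
miR-365-3p: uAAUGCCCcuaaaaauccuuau
miR-365-1-5p: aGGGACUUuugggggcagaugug
miR-365-2-5p: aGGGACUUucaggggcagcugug
The 3p arms of miR-193b and miR-193a shared a seed, which no other RefSeq mouse arm held. They had the same base at 19 of 22 positions and differed by C9U, G20A and C21G, counted from the 5′ end with the miR-193b base first. The seed of miR-365-3p was held by no other mouse arm in that table. The 5p arms of miR-193b and miR-193a differed at 5 of 22 positions, 2 of them in the seed (G5U and U6C), and so belonged to separate seed classes.

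In the annotation of GRCm38.p6, Mir193b lies at chr16:13449523-13449601 and Mir365-1 at chr16:13453840-13453926, both on the plus strand, with 4238 bases between them. GENCODE places both in introns of Gm15738, an antisense RNA gene on the minus strand. Mir193a lies at chr11:79711969-79712034 and Mir365-2 at chr11:79726400-79726511, also on the plus strand, with 14365 bases between them, and neither overlapped another annotated gene. Mature miR-365-3p is identical from the hairpins on chromosomes 16 and 11, so its reads cannot be assigned to either. The 5p arms can be assigned: miR-365-1-5p and miR-365-2-5p share a seed but differ by U10C, G11A and A19C. miR-365-2-5p is no member and is given for comparison.

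The 12 libraries held 3164422 to 8063815 miRNA reads, and 1 read was worth 0.124 to 0.316 CPM. The tests covered the 590 arms with 1 CPM or more in 3 or more libraries. All 6 members passed this filter; miR-193b-5p passed in 5 libraries, 3 of them irradiated, and the others in all 12. Fold changes come from limma and refer to log2(CPM + 1), a scale that makes those of scarce arms smaller. The members were selected with their differences from control in view. Those differences are therefore a description: no p-value is given for any member against control. The counts of members past the threshold are printed only beside the share or number of all arms called.

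miR-193b-3p and miR-365-3p, the abundant arms, were lower in all 9 irradiated libraries than in any control. mmu-miR-193b-3p stood at 9.61, 16.6 and 11.7 CPM after 360 mJ/cm2, against 168, 135 and 51.0 CPM in control replicates 1 to 3. It stood at 31.6, 19.6 and 14.2 CPM after 90 mJ/cm2 and at 22.2, 25.2 and 25.5 CPM after 180 mJ/cm2. Control replicate 3 was the lowest control, and still above the highest irradiated library, UVB_90 replicate 1. The means were 118 ± 60.2 CPM in controls and 21.8 ± 8.93, 24.3 ± 1.80 and 12.7 ± 3.62 CPM at 90, 180 and 360 mJ/cm2 (SD, n = 3 each). The log2 fold change from control was -2.29 ± 0.39 at 90 mJ/cm2 (SE), -2.07 ± 0.39 at 180 mJ/cm2 and -2.99 ± 0.39 at 360 mJ/cm2. Without control replicate 3 these became -2.81, -2.59 and -3.51, and without control replicate 1 -1.96, -1.74 and -2.66. In order of the means, controls came first, then 180, 90 and 360 mJ/cm2, and the ranges of neighbouring irradiated doses in this order overlapped.

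mmu-miR-365-3p stood at 39.2, 41.6 and 31.3 CPM after 360 mJ/cm2, against 139, 163 and 80.2 CPM in the controls. It stood at 70.3, 67.4 and 56.0 CPM after 90 mJ/cm2 and at 64.3, 71.7 and 70.3 CPM after 180 mJ/cm2. As for miR-193b-3p, control replicate 3 was the lowest control, and UVB_90 replicate 3 was the lowest library of its dose. Its log2 fold change from control was -0.91 ± 0.25 (SE) at 90 mJ/cm2, -0.82 ± 0.25 at 180 mJ/cm2 and -1.69 ± 0.25 at 360 mJ/cm2. The step between the lower doses and 360 mJ/cm2 separated the libraries: all 3 of the highest dose lay below all 6 of the other irradiated libraries. The order of the means was the same as for miR-193b-3p, and the ranges at 180 and 90 mJ/cm2 overlapped.

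**Figure D1:**
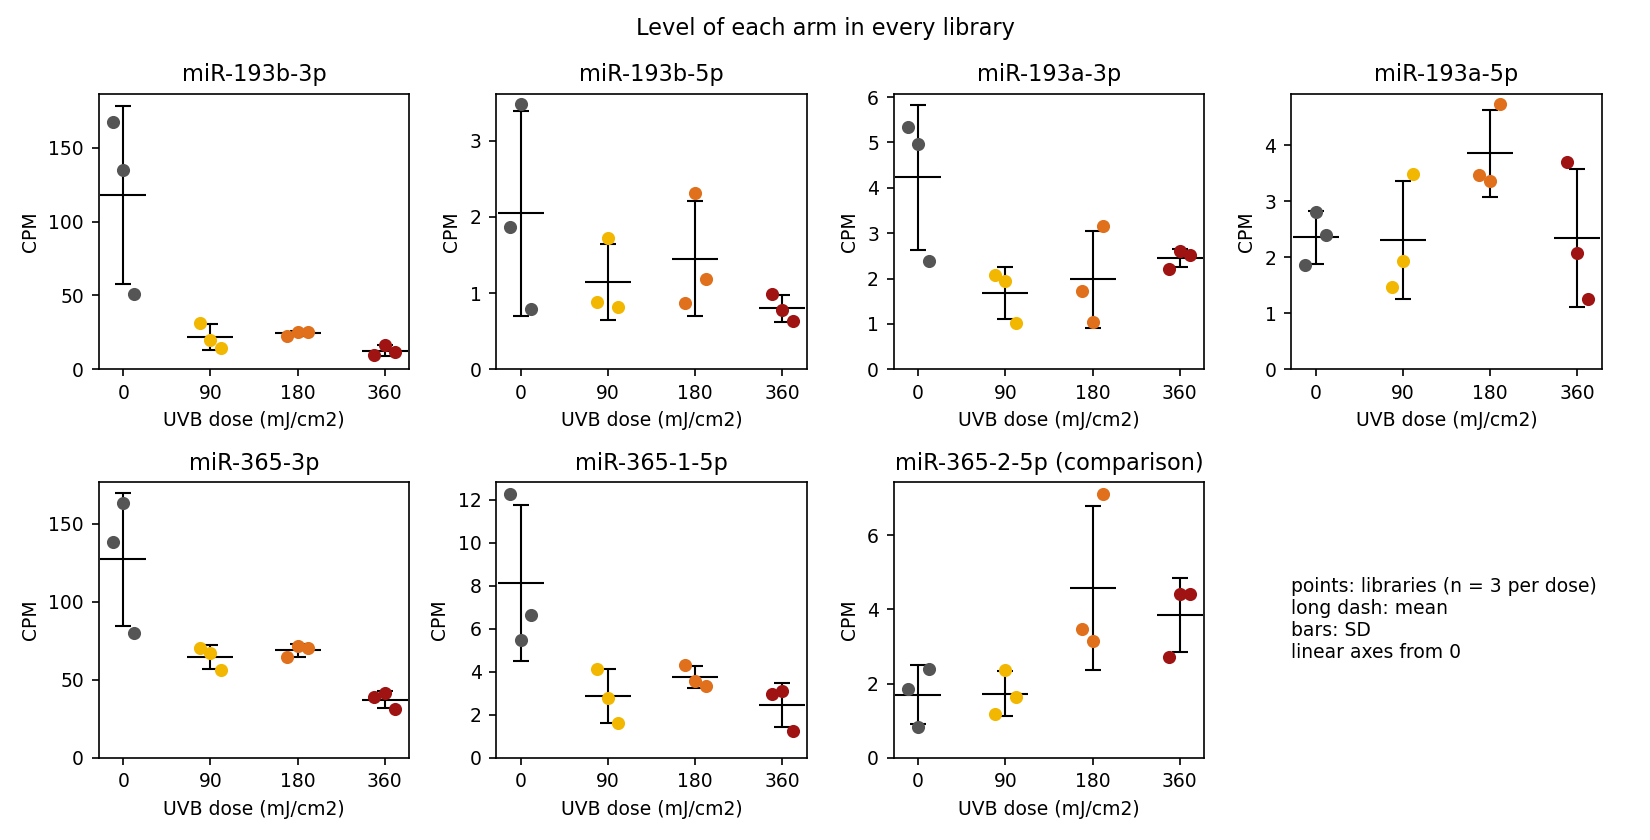
CPM of the 6 members and of miR-365-2-5p in each library against UVB dose in mJ/cm2, each on its own linear axis from 0; points are libraries, the long dash is the mean and the bars are the SD (n = 3 per dose). miR-193b-3p is at most 31.6 CPM in irradiated libraries, against at least 51.0 CPM in controls, while miR-365-2-5p is highest at 180 and 360 mJ/cm2.

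The levels of both abundant arms varied together over the 12 libraries (Pearson r = 0.94 on log2(CPM + 1)) and also as deviations from the mean of each dose (r = 0.83 over the same 12 libraries). These values share the library totals and, in the first case, the doses, and are given as a description. The size of the difference from control was unequal: the log2 ratio of miR-365-3p over miR-193b-3p was 1.51 ± 0.36 at 360 mJ/cm2, against 0.21 ± 0.46 in controls (SD, n = 3 each). It was 1.59 ± 0.41 at 90 mJ/cm2 and 1.47 ± 0.03 at 180 mJ/cm2. All 9 irradiated libraries had a ratio above that of the highest control, 0.64.

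**Figure D2:**
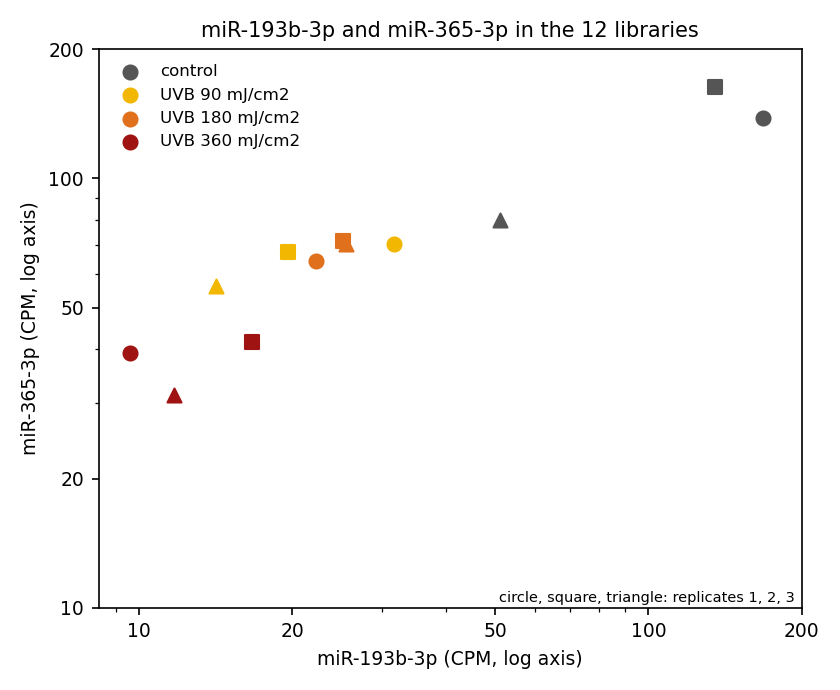
miR-365-3p against miR-193b-3p in CPM, both on log axes, 1 point per library, coloured by dose, with the shape giving the replicate number. Control replicates 1 and 2 sit at the top right, control replicate 3 at 51.0 and 80.2 CPM lies between them and the irradiated libraries, and the 360 mJ/cm2 libraries have the lowest miR-365-3p.

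The scarce members gave a mixed picture. mmu-miR-365-1-5p, the arm opposite miR-365-3p in the chromosome 16 hairpin, stood at 2.96, 3.12 and 1.26 CPM after 360 mJ/cm2, against 12.3, 5.46 and 6.64 CPM in controls. It stood at 4.14, 2.80 and 1.64 CPM after 90 mJ/cm2 and at 4.33, 3.56 and 3.36 CPM after 180 mJ/cm2, so that all 9 irradiated libraries lay below every control. Its log2 fold change from control was -1.22 ± 0.34 (SE) at 90 mJ/cm2, -0.88 ± 0.34 at 180 mJ/cm2 and -1.38 ± 0.34 at 360 mJ/cm2. The ranges of neighbouring irradiated doses overlapped. It rests on few reads, 4 to 17 per irradiated library and 25 to 99 per control.

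miR-193b-5p, the arm opposite miR-193b-3p, was close to the detection limit, with 2 to 21 reads per library. It stood at 0.985, 0.780 and 0.632 CPM after 360 mJ/cm2, against 1.86, 3.47 and 0.797 CPM in controls, and control replicate 3 lay inside the irradiated range. It stood at 0.887, 1.72 and 0.821 CPM after 90 mJ/cm2 and at 0.866, 2.31 and 1.19 CPM after 180 mJ/cm2. The log2 fold changes were -0.43, -0.26 and -0.66 at 90, 180 and 360 mJ/cm2, each ± 0.34 (SE), and every neighbouring pair in the order of means overlapped. The 3p arm took 93.7% ± 2.6 of the hairpin's reads at 360 mJ/cm2, against 98.3% ± 0.72 in controls (SD, n = 3 each). In single libraries the interval was as wide as 78.4% to 96.3% at 360 mJ/cm2 (UVB_360 replicate 1, 39 of 43 reads; 95% Wilson interval, counting error only).

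miR-193a-3p, which shares its seed with miR-193b-3p, stood at 2.22, 2.60 and 2.53 CPM after 360 mJ/cm2, against 5.33, 4.96 and 2.39 CPM in controls. It stood at 2.07, 1.94 and 1.03 CPM after 90 mJ/cm2, below every control, and at 1.73, 1.05 and 3.16 CPM after 180 mJ/cm2. Control replicate 3 was again the lowest control and lay within the range of the 360 mJ/cm2 libraries. The log2 fold changes were -0.94, -0.82 and -0.55 at 90, 180 and 360 mJ/cm2, each ± 0.32 (SE), and neighbouring doses in the order of means overlapped throughout. Its counts were 5 to 43 reads.

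miR-193a-5p was the member without a lower level after irradiation. It stood at 3.70, 2.08 and 1.26 CPM after 360 mJ/cm2, against 1.86, 2.81 and 2.39 CPM in controls. It stood at 1.48, 1.94 and 3.49 CPM after 90 mJ/cm2, and at 3.46, 3.35 and 4.74 CPM after 180 mJ/cm2, where the 3 libraries lay above every control. The log2 fold changes were -0.06, 0.53 and -0.06 at 90, 180 and 360 mJ/cm2, each ± 0.32 (SE). The direction at 90 and 360 mJ/cm2 changed with the scaling or with the library left out.

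**Figure D3:**
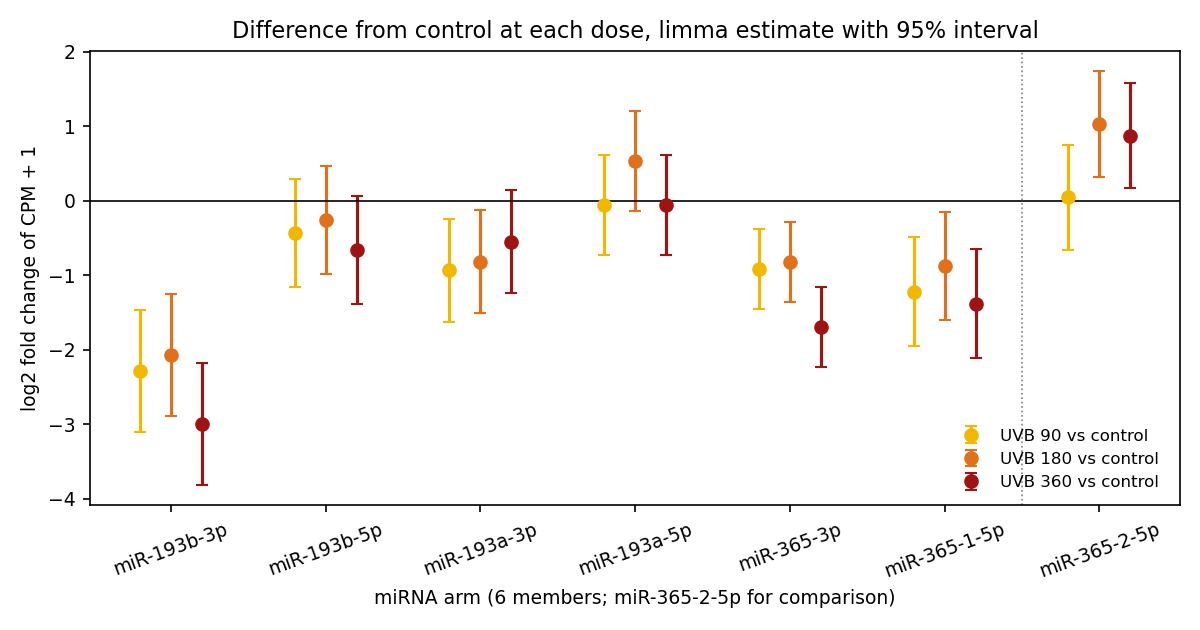
Log2 fold change from control on the log2(CPM + 1) scale, with its 95% interval from limma, for the 6 members and, right of the dotted line, miR-365-2-5p; colours give the dose. miR-193b-3p lies lowest, between -2.07 and -2.99, and miR-365-2-5p is at 1.03 and 0.87 at 180 and 360 mJ/cm2.

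Of the 6 members, 4 had a lower level at an adjusted p under 0.05 at 90 mJ/cm2, where 12.4% of all 590 arms did. At 180 mJ/cm2 it was 2 of 6, with 14.1% of all arms, and at 360 mJ/cm2 it was 3 of 6, with 19.7% of all arms. None was higher at any dose, where 13.2%, 16.6% and 20.2% of all arms were at 90, 180 and 360 mJ/cm2. Members with all irradiated libraries below all controls were 4 at 90 mJ/cm2 (17.8% of all arms), 3 at 180 mJ/cm2 (18.3%) and 3 at 360 mJ/cm2 (23.2%), and 1, miR-193a-5p at 180 mJ/cm2, had all of them above (24.2%). Because the members were chosen on these comparisons, nothing is read from these counts. The median log2 fold change of the members was -0.92, -0.82 and -1.02 at 90, 180 and 360 mJ/cm2, where that of all 590 arms was 0.04, 0.06 and 0.02. The counts also varied with the fit, as did the calls over all arms in either direction. Leaving out a library gave 50 to 173, 90 to 196 and 184 to 252 calls over all arms at 90, 180 and 360 mJ/cm2. The other alternatives gave 83 to 180, 135 to 200 and 177 to 262. The member counts were 1 to 4 at 90 mJ/cm2, with 1 without control replicate 1 or UVB_90 replicate 3. They were 2 there without control replicate 2 or with the compared groups only. At 180 mJ/cm2 they were 1 to 4, with 3 without control replicate 3. They were 1 there without control replicate 1, without UVB_180 replicate 1 or 2, or with the compared groups only. At 360 mJ/cm2, fits of all 6 members gave 3 or 4. A filter of at least 10 CPM in 3 libraries left 2 members to test, and both were called at each dose. Under this filter 135, 150 and 177 arms were called in either direction at 90, 180 and 360 mJ/cm2. The 2 members were chosen on these comparisons, so nothing is read from their calls. The 3 comparisons share the control libraries, and are not independent.

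The irradiated doses were then compared with each other. The differences do not use the control levels, but the controls enter the shared estimate of spread, and so the SE and p-values. The levels at all doses were also known when the members were chosen. No member passed an adjusted p of 0.05 in limma. Of all arms, 11.2% passed for 360 against 90 mJ/cm2, 4.07% for 360 against 180 mJ/cm2 and 0% for 180 against 90 mJ/cm2. miR-365-3p came nearest. Its difference was -0.78 ± 0.25 between 360 and 90 mJ/cm2 (SE; 95% interval -1.32 to -0.24; limma adjusted p = 0.060) and -0.87 ± 0.25 between 360 and 180 mJ/cm2 (-1.41 to -0.33; adjusted p = 0.063). All 3 libraries at 360 mJ/cm2 lay below the other dose in both cases, as 15.4% of all arms did for 360 against 90 mJ/cm2. In the opposite direction, miR-193a-3p alone among the members had all 3 libraries at 360 mJ/cm2 above those at 90 mJ/cm2, as did 17.1% of all arms. miR-365-3p passed for 360 against 90 mJ/cm2 with edgeR and with DESeq2 on recovered reads (adjusted p = 0.033 and 0.0087), and for 360 against 180 mJ/cm2 with DESeq2 (0.011). Leaving out control replicate 3 or UVB_90 replicate 3 brought miR-365-3p under 0.05 in both comparisons (limma adjusted p = 0.016 to 0.049). These were 2 of the 12 fits that left out a library. Among the 10 other alternatives, edgeR and DESeq2 included, it was under 0.05 in 6 for 360 against 90 mJ/cm2. For 360 against 180 mJ/cm2 this held in 4 of the 10. Over all alternatives the adjusted p of miR-365-3p ran up to 0.21 and 0.24 in these 2 comparisons.

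miR-193b-3p differed by -0.70 ± 0.39 between 360 and 90 mJ/cm2 (SE; 95% interval -1.52 to 0.12; limma adjusted p = 0.26) and by -0.92 ± 0.39 between 360 and 180 mJ/cm2 (-1.74 to -0.10; adjusted p = 0.16). With the compared groups only, the limma adjusted p between 360 and 180 mJ/cm2 was 0.035, and over the other alternatives it was 0.055 to 0.41. All 3 of its libraries at 360 mJ/cm2 lay below all 3 at 180 mJ/cm2, as did those of miR-365-3p and miR-365-1-5p, where 15.6% of all arms had no overlap in that direction. For the other members the limma adjusted p was at least 0.47 between 360 and 90 mJ/cm2 and 0.29 to 0.68 between 360 and 180 mJ/cm2. Between 180 and 90 mJ/cm2 no member had an unadjusted p under 0.05, and none was called by edgeR or DESeq2; for miR-193b-3p the difference was 0.22 ± 0.39 (-0.60 to 1.04). At an unadjusted p under 0.05, 1 member (miR-365-3p) passed for 360 against 90 mJ/cm2 and 2 (miR-193b-3p and miR-365-3p) for 360 against 180 mJ/cm2.

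miR-365-2-5p, from the chromosome 11 hairpin of miR-365, is not a member and is given for comparison. The members were chosen with earlier results of these data known, so leaving this arm out was part of that choice. Its p-values below are therefore a description. miR-365-2-5p rose, with 3.46, 3.14 and 7.11 CPM after 180 mJ/cm2 and 2.71, 4.42 and 4.42 CPM after 360 mJ/cm2, against 1.86, 0.827 and 2.39 CPM in controls. Its level after 90 mJ/cm2 was 1.18, 2.37 and 1.64 CPM, within the control range. All 6 libraries of the higher doses lay above every control, as 24.2% of all arms did at 180 and 26.1% at 360 mJ/cm2. In limma the difference on the log2 scale was 1.03 ± 0.33 (SE; adjusted p = 0.030) at 180 mJ/cm2 and 0.87 ± 0.33 (adjusted p = 0.047) at 360 mJ/cm2, against 0.04 ± 0.33 (adjusted p = 0.93) at 90 mJ/cm2. The calls rest on 4 to 36 reads per library and were close to the threshold. At 180 mJ/cm2 the call was lost without control replicate 1 (adjusted p = 0.063), control replicate 2 (0.14) or UVB_180 replicate 3 (0.14). At 360 mJ/cm2 it held in 3 of 12 fits that left out a library, those without control replicate 3, UVB_180 replicate 3 or UVB_360 replicate 1, and there edgeR gave an adjusted p of 0.084 and DESeq2 0.082.

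The balance of reads between the 5p arms of the 2 miR-365 hairpins differed with irradiation. miR-365-1-5p held 52.2%, 41.4% and 22.2% of the reads of both 5p arms after 360 mJ/cm2, against 86.8%, 86.8% and 73.5% in controls. Means were 38.6% ± 15.2 and 82.4% ± 7.7 (SD, n = 3 each). It held 77.8%, 54.2% and 50% after 90 mJ/cm2 and 55.6%, 53.1% and 32.1% after 180 mJ/cm2. Only UVB_90 replicate 1 among the 9 irradiated libraries reached the control range. The 95% Wilson intervals were wide, for example 9.0% to 45.2% in UVB_360 replicate 3 (4 of 18 reads) and 79.4% to 91.9% in control replicate 1 (99 of 114 reads). As a log2 ratio of miR-365-1-5p over miR-365-2-5p, this was -0.52 ± 0.69 at 360 mJ/cm2, against 1.74 ± 0.53 in controls. With 3 libraries against 3 an exact permutation test cannot go below a two-sided p of 0.10, and no p is given because a member enters the ratio.

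The balance between the 3p arms of miR-193 differed in the same sense, toward the chromosome 11 copy. miR-193b-3p held 81.2%, 86.5% and 82.2% of the reads of both miR-193 3p arms after 360 mJ/cm2, against 96.9%, 96.5% and 95.5% in controls. It held 93.9%, 91.0% and 93.2% after 90 mJ/cm2 and 92.8%, 96.0% and 89.0% after 180 mJ/cm2, where UVB_180 replicate 2 overlapped the controls. Summed over both arms, reads with the miR-193 3p seed came to 15.1 ± 3.8 CPM at 360 mJ/cm2, against 122 ± 61.8 CPM in controls (SD, n = 3 each). Library preparation by ligation can favour some ends over others, so the share itself is no measure of true abundance, and its difference between libraries is what is compared. The handling of reads that match both near-identical arms was not given in the sources used here.

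**Figure D4:**
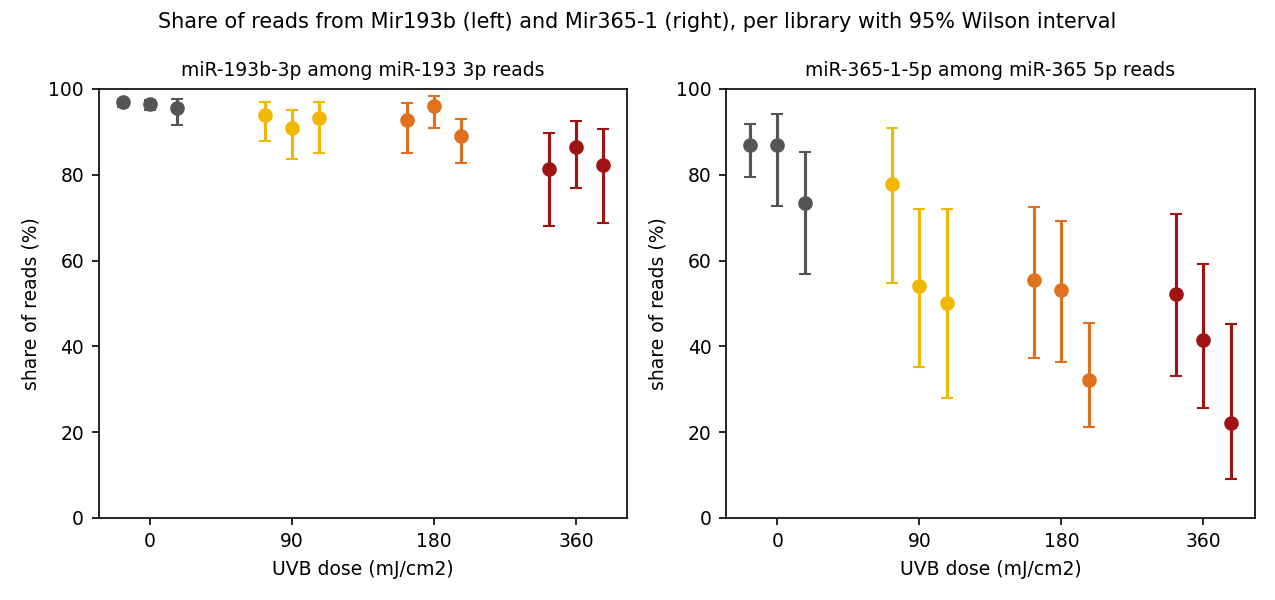
Share of reads in percent, per library, against UVB dose in mJ/cm2, with 95% Wilson intervals: left, miR-193b-3p among the reads of both miR-193 3p arms; right, miR-365-1-5p among the reads of both miR-365 5p arms. On the right, the 360 mJ/cm2 libraries lie at 22.2% to 52.2%, against 73.5% to 86.8% in controls.

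Markers of the cell types in skin were read in the same libraries. With bulk tissue, fewer cells of a type and less RNA per cell cannot be told apart. The marker lists were chosen with earlier results of these data known, so the p-values and counts for all lists below are a description. At a limma adjusted p under 0.05, 12.4%, 14.1% and 19.7% of all 590 arms were lower than control at 90, 180 and 360 mJ/cm2. The shares that were higher were 13.2%, 16.6% and 20.2%. The 7 epithelial miRNAs (the miR-200 family with miR-141, miR-203 and miR-205) summed to 11646 to 36482 CPM at 360 mJ/cm2, against 81219 to 94933 CPM in controls. All 7 fell at 360 mJ/cm2 (limma adjusted p under 0.05; median log2 fold change -2.36), and 3 of 7 fell at each lower dose (medians -0.63 and -0.28). miR-200a-3p fell by 2.19 ± 0.45 at 90 mJ/cm2 (limma adjusted p = 0.0044), and its log2 fold change at 360 mJ/cm2 was -4.38 ± 0.45 (7.1e-06). UVB_90 replicate 3 and UVB_180 replicate 1 stood apart from their groups, with epithelial sums of 28121 and 41085 CPM and the lowest miR-193b-3p of their doses, 14.2 and 22.2 CPM. In the other UVB_90 and UVB_180 libraries the sum was 81697, 88669, 90429 and 95200 CPM, above the lowest control. Most of this sum was miR-203-3p. The scarcer miR-200a-3p, miR-141-3p and miR-429-3p lay below every control in these libraries too; miR-200a-3p, for example, was at 852 to 1236 CPM there, against at least 2786 CPM in controls. In these same 4 libraries miR-193b-3p was at 31.6, 19.6, 25.2 and 25.5 CPM, below the lowest control at 51.0 CPM. At 360 mJ/cm2 both were low, with the lowest epithelial sum in replicate 3 (11646 CPM) and the lowest miR-193b-3p in replicate 1 (9.61 CPM). The part of the epithelial change in the members' levels was not tested.

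**Figure D5:**
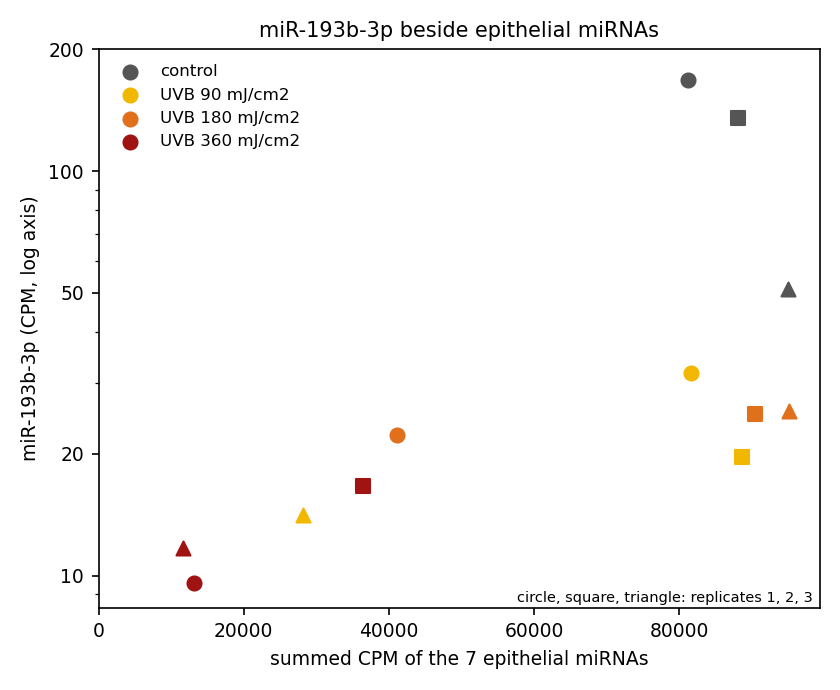
miR-193b-3p in CPM on a log axis against the summed CPM of the 7 epithelial miRNAs on a linear axis, 1 point per library, coloured by dose, with the shape giving the replicate number. UVB_90 replicates 1 and 2 and UVB_180 replicates 2 and 3 lie at 81697 to 95200 CPM of summed epithelial miRNAs, above the lowest control sum, and at 19.6 to 31.6 CPM of miR-193b-3p.

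The miRNAs listed as myeloid were both arms of miR-223 and miR-142a, and miR-147-3p. They summed to 3399 to 4691 CPM at 360 mJ/cm2, against 458 to 622 CPM in controls. miR-142a marks leukocytes in general, and its 5p arm alone was at 298 to 441 CPM in controls. The sum therefore does not separate myeloid cells from other leukocytes. All 5 listed arms rose at 360 mJ/cm2, 4 of 5 at 180 mJ/cm2 and 2 of 5 at 90 mJ/cm2 (medians 3.73, 1.27 and 1.25). With a library left out, 5 rose in every case at 360 mJ/cm2, 1 to 5 at 180 mJ/cm2 and 1 to 3 at 90 mJ/cm2. Sums were 798 to 1607 CPM at 180 mJ/cm2 and 846 to 2295 CPM at 90 mJ/cm2, and the part of these cells in the members' levels was not tested.

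miRNAs linked to fat were followed because the miR-193b/miR-365 pair is known from adipocytes. The 6 arms summed to 14813 to 16830 CPM at 360 mJ/cm2, inside the control range of 13629 to 17652 CPM. Most of this sum was miR-378a-3p, with a mean of 12409 CPM at 360 mJ/cm2, against 9789 CPM in controls. miR-182-5p went the other way, with 1718 CPM against 5216 CPM. The sum therefore says little about the scarcer arms. miR-455-3p, from a hairpin that promotes brown adipocyte differentiation in mice, rose at every dose, by 1.09 ± 0.23 at 90 mJ/cm2 (limma adjusted p = 0.0055), 0.91 ± 0.23 at 180 mJ/cm2 (0.0096) and 1.09 ± 0.23 at 360 mJ/cm2 (0.0016). miR-455-5p rose at 90 and 360 mJ/cm2 (2.09-fold and 2.83-fold; adjusted p = 0.035 and 0.0028). At 90 mJ/cm2 its call did not hold when control replicate 1, control replicate 2, UVB_90 replicate 1 or UVB_90 replicate 3 was left out (adjusted p at most 0.16). miR-182-5p fell at 360 mJ/cm2 (-1.69 ± 0.35, adjusted p = 0.0014), and miR-196a-5p and both arms of miR-378a did not pass at any dose. The direction of the list was thus mixed, with medians of -0.30, 0.42 and -0.13 at 90, 180 and 360 mJ/cm2.

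The skeletal muscle arms (miR-206-3p, miR-1a-3p and the 3p arms of miR-133a and miR-133b) summed to 153621 to 202440 CPM at 360 mJ/cm2, overlapping the controls at 193259 to 228888 CPM. At 90 and 180 mJ/cm2 the muscle sums lay below every control, at 157798 to 173522 CPM and 82046 to 187147 CPM. Most of this sum was miR-1a-3p, which passed at no dose (limma adjusted p = 0.38, 0.085 and 0.49 at 90, 180 and 360 mJ/cm2). Of these 4, 2 fell at 90 and 2 at 180 mJ/cm2, miR-133a-3p and miR-133b-3p, and 1 at 360 mJ/cm2, miR-133b-3p. From 0 to 3 fell when a library was left out. miR-206-3p had a mean of 6518 CPM at 360 mJ/cm2, against 4001 CPM in controls (limma adjusted p = 0.13). It was called higher there in 1 fit that left out a library. Both pigment cell arms, miR-204-5p and miR-211-5p, fell at 180 and 360 mJ/cm2 and 1 at 90 mJ/cm2, with sums of 9.80 to 12.6 CPM at 360 mJ/cm2, against 97.1 to 156 CPM in controls. Among 5 arms of fibroblasts and smooth muscle, 3 rose and 2 fell at 180 and at 360 mJ/cm2. Those that rose were miR-199a-3p, miR-199a-5p and miR-214-3p, and those that fell were miR-143-3p and miR-145a-5p. At 90 mJ/cm2 1 rose, miR-199a-3p. The sums overlapped the controls at every dose, but they add arms that moved in opposite directions. With a library left out, 0 to 3 rose and 0 to 2 fell. Of 2 endothelial arms, miR-126a-3p rose at each dose, and the sum was 21890 to 25249 CPM at 360 mJ/cm2, against 8303 to 8774 CPM in controls; at 90 mJ/cm2 it was 0 or 1 with a library left out. None of the 3 red blood cell arms passed at any dose. No marker arm was at 0 in any library, and the part of these cells in the members' levels was not tested.

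The arms whose pattern was most like that of the abundant members were found by Pearson r of log2(CPM + 1) over the 12 libraries among 336 arms outside the members with a mean of at least 10 CPM. Nearest to miR-193b-3p were miR-30a-5p (r = 0.96), miR-23a-3p (0.95), miR-30c-2-3p (0.95), miR-324-3p (0.93) and miR-181c-5p (0.93). Nearest to miR-365-3p were miR-676-3p (r = 0.95), miR-30c-2-3p (0.93), miR-181b-5p (0.93), miR-34a-5p (0.92) and let-7b-5p (0.92). These r share the doses and library totals. As deviations from the mean of each dose, r was 0.55 to 0.90 for the arms near miR-193b-3p and 0.43 to 0.77 for those near miR-365-3p. The size of the difference varied among them: miR-30a-5p had 8892 ± 553 CPM at 360 mJ/cm2, against 18534 ± 4052 CPM in controls, and miR-676-3p had 39.8 ± 9.0 CPM, against 167 ± 30.2 CPM (SD, n = 3 each).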

How the data were processed

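Per the labels' protocols, RNA of mouse skin was extracted with Trizol, and small RNA libraries (NEBNext kit) were read on a NextSeq instrument. The deposited values are CPM, computed by the authors over miRNA reads; each library sums to 1000000. The submitters' processing notes name build mm9; the aligner, counter and miRBase release used were not given in the sources used here. Whole reads were recovered from the CPM, with 100% of values within 0.01 reads of a whole number, and used for edgeR, DESeq2 and shares.

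Groups came from sample titles. All 12 libraries entered 1 limma-trend fit (limma 3.58.1, R 4.3.3) on log2(CPM + 1), without a replicate term, for arms that reached 1 CPM in 3 or more libraries; p-values were two-sided and adjusted by Benjamini-Hochberg over all 590 arms. Alternatives were TMM scaling, other totals, pseudocounts of 0.5 and 5, other filters, edgeR 4.0.16, DESeq2 1.42.0, a replicate block, the compared groups only, and each library left out. The fit was tested on simulated data. The upper limit for an arm with no reads, 3 reads, corresponds to 0.372 to 0.948 CPM. The Wilson intervals of shares cover counting error only, and reads carry no molecular identifiers. The intervals from limma rest on the SE of the fit, which measures the spread among libraries. No replicates were identical or agreed within sampling noise (chi-square over degrees of freedom 173 to 778), so each library counted as 1.

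The members and marker lists were chosen with earlier results of these data known. The text names the 6 members, miR-365-2-5p, seed relatives, the 5 arms most like each abundant member, and the marker lists. Mature sequences and hairpin positions are from RefSeq (GRCm38.p6), and the overlapping gene from GENCODE on the same assembly. Replicate numbers were not used to pair the libraries in the reported fit, because the labels do not say what they mark.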

Additional observations from a re-analysis of the deposited data

How the results depend on the processing

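Member folds from control kept their sign in 376 of 384 alternative values; of the other 8, 1 was miR-193b-5p at 180 mJ/cm2 (0.07 without control replicate 2) and the rest were miR-193a-5p at 90 or 360 mJ/cm2. Low counts limit the 5p arms and miR-193a-3p: with edgeR, which adds no pseudocount of 1 CPM, miR-193b-5p at 360 mJ/cm2 was -1.48 and miR-365-1-5p -1.89. With at least 10 CPM in 3 libraries, only miR-193b-3p and miR-365-3p were left to test. Taking miR-1a-3p and miR-21a-5p from the totals moved the median of all arms by 0.20 at 360 mJ/cm2, 0.15 for 360 against 90 and 0.13 for 360 against 180 mJ/cm2, and TMM moved it by -0.13 at 180 mJ/cm2. miR-193b-3p at 360 mJ/cm2 was then -2.76, and at 180 mJ/cm2 with TMM -2.23. Of the calls, 65.2% were higher with those totals at 360 mJ/cm2 (50.6% as reported), 71% for 360 against 90 (53%), 65.4% for 360 against 180 (41.7%), and 41.2% with TMM at 180 mJ/cm2 (54.1%).

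The number of arms called over the whole table was 151, 181 and 235 at 90, 180 and 360 mJ/cm2 against control, and 66, 24 and 0 for 360 against 90, 360 against 180 and 180 against 90 mJ/cm2. Leaving out each library gave 50 to 173, 90 to 196, 184 to 252, 0 to 88, 0 to 45 and 0 to 0. At 90 mJ/cm2 leaving out control replicate 1 gave 50, control replicate 2 gave 96 and UVB_90 replicate 3 gave 84, and at 180 mJ/cm2 control replicate 1 gave 90 and UVB_180 replicate 3 gave 106. For 360 against 90 it was 0 without UVB_90 replicate 1 or 2, 1 without UVB_360 replicate 3 and 18 without UVB_360 replicate 1; for 360 against 180 leaving out control replicate 2 gave 15, control replicate 3 gave 43 and UVB_90 replicate 3 gave 45, and it was 0 without UVB_180 replicate 2 or 3 or UVB_360 replicate 1 and 1 without UVB_360 replicate 3. With the compared groups only, 83 were called at 90 mJ/cm2 and 63 for 360 against 180 mJ/cm2; no filter gave 43 for 360 against 90, and edgeR and DESeq2 gave 15 and 66 for 360 against 180. Between 180 and 90 mJ/cm2, edgeR and DESeq2 also called 0, and 17 arms had an unadjusted limma p under 0.05. The cause was not tested.

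Same-numbered libraries share only a number: the r of their deviations was -0.22 to 0.24 over 18 pairs, and 4 of 12 libraries correlated best with their own number. With the replicate block, calls over all arms were 155, 171 and 229 against control (50.3%, 55% and 51.1% of them higher) and 68, 30 and 0 between doses. miR-365-3p passed for 360 against 90 and 360 against 180 mJ/cm2 (limma adjusted p = 0.041 and 0.039). Of the 6 members, 3, 3 and 3 were called lower at 90, 180 and 360 mJ/cm2 (4, 2 and 3 without the block). The members were chosen on the comparisons with control, so nothing is read from these member counts.

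The log2 ratio of miR-365-1-5p over miR-365-2-5p, 360 mJ/cm2 minus control, was -2.26 and became -1.20 with a pseudocount of 5; leaving out a library gave -2.56 to -1.89. Signs turned only for differences near 0, none of them past the threshold. For 180 against 90 mJ/cm2, leaving out a library gave -0.038 to 0.51 for miR-193b-3p, -0.062 to 0.36 for miR-193b-5p, -0.16 to 0.36 for miR-193a-3p and -0.0031 to 0.16 for miR-365-3p. For 360 against 90 mJ/cm2 it gave -0.28 to 0.25 for miR-193a-5p (TMM -0.034, pseudocount 0.5 -0.0036, edgeR -0.025) and -0.41 to 0.12 for miR-365-1-5p. For miR-365-2-5p it gave -0.21 to 0.23 at 90 mJ/cm2 (TMM -0.023, edgeR -0.011) and -0.33 to 0.15 for 360 against 180 mJ/cm2.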
